A study of Drosophila melanogaster with 42 samples.

Results

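Chromatin accessibility was followed in Drosophila embryos labelled cic6 from 2 to 2.5 h to 2.5 to 3 h after egg laying. These windows are called early and late here, and each held 3 ATAC-seq libraries, so that 6 of the 42 libraries of the series entered the comparison. ATAC-seq uses a transposase that cuts open DNA, and the authors deposited a list of peaks (stretches rich in cuts) for every library, with a fold enrichment over local background per peak. Overlapping peaks of the 6 lists were merged into 69053 loci. A locus was called gained when all 3 late lists and no early list held a peak there, lost in the reverse case, and shared when all 6 lists held one. By this rule 491 loci (0.711% of all) were gained, 1096 (1.59%) were lost and 28395 were shared.

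The label cic6 names an allele of cic. The labels do not say whether the mothers were mutant, nor what else the stock carries. The groups set beside it, in the same windows, were the wild type OreR (Oregon-R) and embryos labelled gd7 and zld-, with 3 libraries each per window. The gd gene acts upstream of Dorsal, whose graded nuclear entry patterns the back-to-belly axis, and zld encodes the maternal factor Zelda; the names of the deposited zld- data refer to RNAi. Each library of these windows was made from 40 whole embryos sorted by hand. A weaker signal can therefore mean fewer open nuclei or less opening in each, and these cannot be told apart. Nothing in the labels says that replicates came from separate cages, so p-values measure the spread between libraries. Reads per library were not used here, the depth is unknown, and a missing peak does not show closed chromatin.

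The gene cic encodes Capicua, a repressor with an HMG box that the mother supplies to the egg. At the poles of the embryo the Torso receptor signals through MAP kinase and removes Capicua, which frees the terminal genes tll and hkb, and elsewhere Capicua keeps them off. It also acts on genes patterned along the other axis of the embryo, such as ind, and on targets of the EGF receptor pathway such as aos. The windows studied lie at the end of the syncytial blastoderm, when the zygotic genome is widely transcribed, cells form and gastrulation nears.

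Peaks over cic itself (3R:20252770-20303942) did not check the genotype. The cic6 lists held 17, 17 and 19 peaks overlapping the gene early and 18, 20 and 16 late, and the OreR lists held 15, 19, 16, 16, 16 and 22. The highest of them reached a fold enrichment of 6.97, 5.5 and 6.41 early and 5.41, 6.26 and 6.95 late in cic6, against 3.52 to 4.95 in OreR. The lists differed in scale as a whole, with median fold enrichments of 2.50 to 3.03 in cic6 and 2.01 to 2.41 in OreR. Fold enrichments are therefore not directly comparable between cic6 and OreR, here and below.

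Peak number, width and strength were compared between the windows first, and no difference passed an exact test. Early cic6 lists held 45402, 53563 and 58137 peaks and late lists 48726, 50599 and 42055. The difference in number was -5241 peaks (52367 ± 6451 early and 47127 ± 4491 late, SD, n = 3; exact permutation test, two-sided, p = 0.4), and 3 libraries against 3 cannot go below p = 0.1. Median peak width was 334, 365 and 358 bp early and 418, 413 and 362 bp late, a difference of 45.3 bp (exact p = 0.2). Median fold enrichment was 3.03, 2.56 and 2.62 early and 2.50, 2.53 and 2.96 late, a difference of -0.0709 (exact p = 0.5), which was 0.0749 without early replicate 1 and 0.00902 without late replicate 1. Early replicate 1 and late replicate 3 stood apart in their windows, with the shortest lists and the highest median fold enrichment. Any 2 lists shared 64.9% to 74.8% of their loci within a window and 59.1% to 69.6% between windows, and these ranges overlap.

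**Figure D1:**
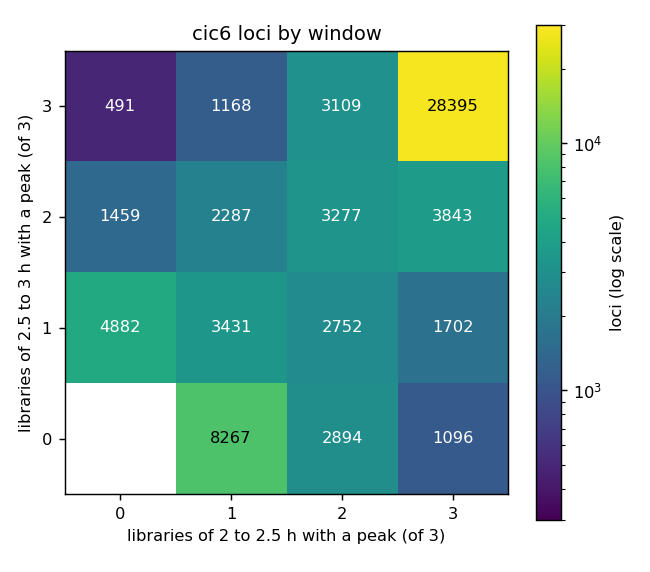
Number of cic6 loci by how many of the 3 early libraries (horizontal axis) and of the 3 late libraries (vertical axis) held a peak, on a logarithmic colour scale. The largest class is the 28395 loci found in all 6 lists, while the 491 gained loci (upper left) and the 1096 lost loci (lower right) are the smallest classes.

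The gained and lost loci were mostly weak peaks. The median gained locus stood at percentile 26.5, 34.7 and 24.8 of fold enrichment within the 3 late lists, and the median lost locus at 19.5, 21.7 and 25.4 within the 3 early lists. Many more loci lay just outside the rule. There were 1168 loci with 3 late lists and 1 early list and 1459 with 2 late lists and no early list, with median fold enrichments of 2.28 and 2.01 against 2.17 for gained loci. On the other side 1702 loci had 3 early lists and 1 late list and 2894 had 2 early lists and no late list, with 2.29 and 2.04 against 2.14 for lost loci. The members thus did not stand apart in strength from their neighbours outside the rule.

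The excess of lost over gained loci turned round when lists had equal length. With every list cut to the length of the shortest, 862 loci were gained and 683 lost. Leaving out 1 library loosened the rule and gave 704 to 1369 gained and 1406 to 3088 lost loci. The gained loci numbered 944 without early replicate 2, 983 without early replicate 3, 925 without late replicate 1 and 1369 without late replicate 3. The lost loci numbered 3088 without early replicate 1, 1721 without early replicate 2, 1845 without late replicate 1 and 1779 without late replicate 2.

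Gained and lost loci were narrower than shared loci and less often in the regions that the authors tested. Their median width was 387 and 383 bp, against 721 bp for shared loci and 440 bp for all loci. A locus spans every peak merged into it, and shared loci merge peaks of more lists, so this difference is partly built in. The end of a protein-coding gene lay within 500 bp of 23.6% of gained, 18.1% of lost, 30.9% of shared and 22.8% of all loci. These 500 bp shares were taken over the loci on the main chromosome arms. A gene overlapped 64.8% of gained and 78.1% of lost loci, against 70.9% of all. The regions that the authors tested in their own comparison covered 36.5% of gained and 38.2% of lost loci, against 71.7% of shared and 50.1% of all loci. These regions are by their name ATAC peaks of OreR, and a wider locus meets one more readily. How far either shaped the shares was not tested.

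Members were spread over many genes. The 491 gained loci had 376 nearest genes, of which 335 had 1 gained locus, and the 1096 lost loci had 938, of which 854 had 1. Myo81F, a myosin gene in the pericentric part of 3R, was nearest to 22 gained and 21 lost loci among 1281 loci in all. The next genes were Pzl with 8 gained of 377 loci and l(3)80Fg with 6 lost of 179.

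The strongest gained loci were ordered by their lowest percentile over the 3 late lists. A locus 6028 bp from Cyp9b2, a cytochrome P450 gene (2R:7138167-7138500), had fold enrichments of 5.26, 5.55 and 5.78 in the late lists and no peak in the early lists. OreR had no peak there early and one in 2 late libraries, at 3.78 and 3.21. A locus inside d4 (2R:5260582-5260854) had 3.64, 4.02 and 4.60 in cic6 late, and in OreR it had no early peak and late values of 4.02, 3.93 and 4.02. A locus 564 bp from Tim17b, which encodes a subunit of the mitochondrial import machinery (3R:3734038-3734291), had 4.01, 4.52 and 4.83, and 1 early and 3 late OreR libraries had a peak there. All 3 loci thus appeared more often late in OreR as well.

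At Idgf4, which encodes a secreted growth factor of the chitinase-like family (X:9930905-9931140), the late cic6 values were 3.46, 3.50 and 4.31, and no OreR library of either window had a peak. At bs, which encodes the fly serum response factor (2R:24373975-24374385), the late cic6 values were 3.51, 4.17 and 3.95, and all 6 OreR libraries had a peak. At a locus shared by CG31909 and Wnt4, a gene for a secreted signal (2L:7257667-7258391), the values were 3.35, 3.69 and 4.82, and 2 early and 3 late OreR libraries had a peak. The other 4 of these 10 loci lay nearest to CG41128, Scp1, Myo81F and CG42598, with late values from 3.41 to 4.67, and at each of them more late than early OreR libraries had a peak.

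Among lost loci the strongest lay 58684 bp from AGO3, an Argonaute gene of the piRNA pathway (3L:23495709-23495909). Its fold enrichments were 5.34, 4.10 and 4.65 in the early lists, and no OreR library of either window had a peak there. A locus in CG5561 (2L:1353099-1353578) had 4.87, 3.84 and 4.89 early in cic6, while all 6 OreR libraries had a peak, at 3.16, 2.66 and 2.96 early and 1.77, 1.78 and 2.26 late. A locus 33196 bp from CG34393 (2L:3233692-3234238) had 4.59, 5.68 and 5.06, and in OreR it was found in all 3 early libraries, at 2.57, 3.05 and 2.52, and in no late one. Only the last of these 3 followed the rule in OreR as well.

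A pair of lost loci lay inside stol, a gene for a calcium channel subunit. The one nearest to CG43924 (2L:15708929-15709118) had 4.53, 3.28 and 3.70 and the one nearest to CG43923 (2L:15673907-15674170) 3.86, 3.13 and 3.28 in the early lists. Both had a peak in 2 early and no late OreR libraries. The other 5 of the 10 lay nearest to CG40813, Cadps, CG4928, CG15468 and BckdhB. At CG40813 all 6 OreR libraries had a peak, at Cadps 1 of each window, and at the other 3 more early than late ones.

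The windows of the other genotypes, which the rule did not use, showed the same direction. Gained loci had a peak in 28.5%, 42.8% and 28.1% of cases in the 3 early OreR libraries and in 70.7%, 68.6% and 66.4% in the late ones. In gd7 the shares were 22.0%, 31.8% and 35.2% early and 65.2%, 58.7% and 64.4% late. In zld- they were 45.4%, 42.4% and 17.9% early and 62.7%, 60.1% and 37.3% late. The windows did not overlap in OreR and gd7 and overlapped in zld-, where late replicate 3 lay below the highest early library.

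Lost loci ran the other way. Their shares were 61.5%, 75.5% and 76.8% early and 24.5%, 23.0% and 58.6% late in OreR, where late replicate 3 stood far from the other late libraries. They were 79.7%, 62.7% and 69.8% early and 39.1%, 37.6% and 29.4% late in gd7, and 65.6%, 64.7% and 54.9% early and 60.6%, 35.7% and 43.2% late in zld-. Averaged over the 3 genotypes, gained loci rose from 32.7% to 61.6%, by 28.9 points, and lost loci fell by 28.8 points, from 67.9% to 39.1%. Both had p = 0.00075 in two-sided exact permutation tests that exchanged windows within each genotype. All cic6 loci differed by -0.733 points (exact p = 0.796) and shared loci by 2.44 points (exact p = 0.218). Within 1 genotype the exact test cannot go below p = 0.1, and the differences were 35.4 and -35.9 points in OreR, 33.1 and -35.4 in gd7 and 18.1 and -15.2 in zld-. Whether the genotypes differ in this was not tested.

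**Figure D2:**
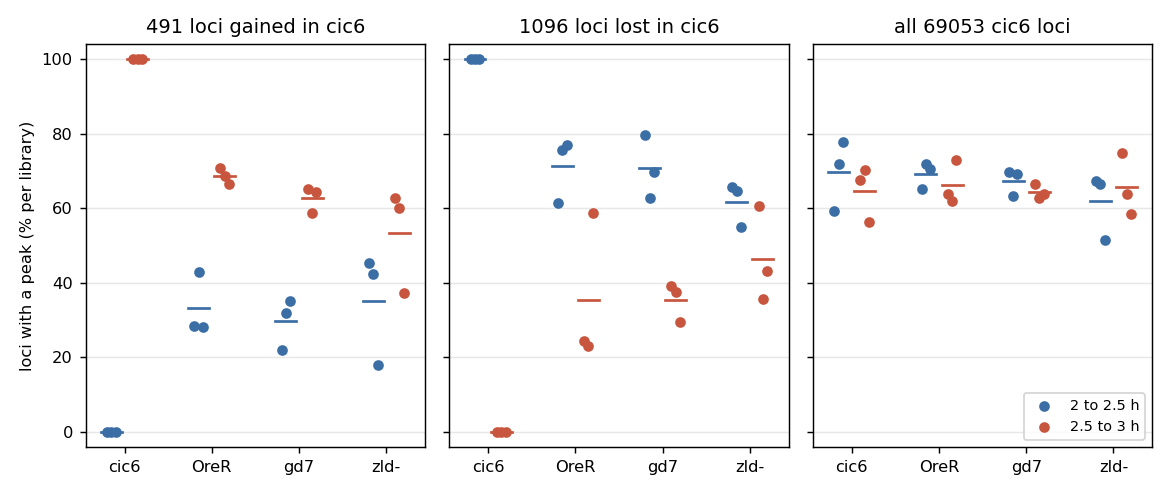
Share of loci with a peak in each library (vertical axis, percent) for cic6, OreR, gd7 and zld-, for the 491 gained, the 1096 lost and all 69053 cic6 loci. Points are libraries, horizontal bars are group means, blue is 2 to 2.5 h and red 2.5 to 3 h. The cic6 values at gained and lost loci are fixed by the rule, while the OreR means go from 33.1% to 68.6% at gained and from 71.3% to 35.3% at lost loci.

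Locus by locus, 321 gained loci (65.4%) had a peak in more late than early OreR libraries, 32 (6.52%) in fewer and 138 in as many, against 17.3% more and 23.0% fewer among all loci. Of the lost loci, 752 (68.6%) had a peak in fewer late than early OreR libraries, 88 (8.03%) in more and 256 in as many. The full pattern of 3 libraries against none recurred in OreR at 60 gained loci (12.2%) and 114 lost loci (10.4%), against 1.22% and 1.75% of all loci. No OreR peak of either window lay at 46 gained (9.37%) and 81 lost loci (7.39%), and 9.65% of all loci were without one.

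The reverse reading used loci defined in OreR. By the same rule 722 of 64810 OreR loci were gained and 1175 lost. The OreR gained loci had a peak in 40.0%, 46.0% and 43.9% of cases in early cic6 libraries and in 66.9%, 78.0% and 60.1% in late ones, a difference of 25.0 points (43.3 ± 3.02 and 68.3 ± 9.02, SD, n = 3; exact permutation test, p = 0.1, the smallest it can give). The OreR lost loci had one in 31.1%, 51.7% and 69.0% early and in 24.3%, 21.4% and 11.4% late, a difference of -31.5 points (50.6 ± 19.0 and 19.1 ± 6.79, SD, n = 3; exact p = 0.1). In both sets the windows did not overlap. All OreR loci differed by -4.11 points (exact p = 0.5).

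At the shared loci the question was whether an element moved up or down within the ranking of fold enrichment. Ranks within each list were turned into normal scores, on which 1 unit is 1 SD of the ranking, and tested with limma across all 28395 loci. At a Benjamini-Hochberg adjusted p under 0.05, 6 loci (0.0211%) ranked higher late and 14 (0.0493%) lower. The smallest adjusted p was 0.0442, while 5422 loci (19.1%) had an unadjusted p under 0.05. The 3 late ranks lay above all 3 early ranks at 3600 loci (12.7%) and below them at 3715 (13.1%). The limma test called no locus when any 1 of the 6 libraries was left out, and 3731 to 5695 loci then had an unadjusted p under 0.05.

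The 6 loci that ranked higher lay at genes of varied function. A locus inside Dtg, a target gene of the Dpp growth factor (3R:12649108-12649645), had fold enrichments of 1.66, 1.61 and 1.49 early and 2.01, 2.2 and 2.55 late. Its score rose by 1.98 (SE 0.20, limma adjusted p = 0.0467), and OreR had a peak there in 1 early and 3 late libraries. A locus over mRpL15, which encodes a mitochondrial ribosomal protein, and CtIP, which acts in DNA repair (3L:20435250-20436470), went from 2.06, 2.07 and 2.12 to 3.68, 3.86 and 4.92. Its score rose by 1.96 (SE 0.16, limma adjusted p = 0.0442) and differed by 0.49 in OreR.

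At spd-2, a gene for a centrosome protein, and Apl (3L:16594304-16595582) the values were 2.05, 1.80 and 1.89 early and 2.71, 2.93 and 3.21 late. The score rose by 1.70 in cic6 (limma adjusted p = 0.0442) and differed by 1.57 in OreR. The other 3 lay in Myo81F (3R:1328943-1329348, score change 1.78), 431 bp from CG15594 (1.47) and 5878 bp from CG17486 (1.34). At all 6 loci the late values of fold enrichment lay above the early ones without overlap, which the choice of loci by rank favours.

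The 14 loci that ranked lower were also at varied genes. The largest fall was at a locus inside Myo81F (3R:2283659-2284222), with fold enrichments of 4.42, 3.49 and 4.02 early and 1.99, 1.73 and 1.83 late, and its score fell by 2.03 (SE 0.20, limma adjusted p = 0.0442). A locus in the gene ko (3L:21114786-21115259) went from 3.55, 3.39 and 3.41 to 1.80, 1.83 and 1.86, and OreR had a peak there in all 3 early and no late libraries. A locus 1646 bp from sbb, which encodes the co-repressor Scribbler (2R:18358942-18359518), went from 3.69, 3.83 and 4.50 to 2.03, 1.97 and 1.99. Its score fell by 1.70 in cic6 (limma adjusted p = 0.0442) and differed by -1.56 in OreR.

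Inside osa, which encodes a subunit of the SWI/SNF remodelling complex (3R:17707890-17708339), the values were 3.97, 3.86 and 3.86 early and 2.18, 1.99 and 2.17 late. The score fell by 1.44 in cic6 (limma adjusted p = 0.0442) and differed by -1.43 in OreR. A locus 2060 bp from Pex19, a gene of peroxisome import, also lay within 5 kb of the pair-rule gene prd (2L:12089158-12089762). It went from 2.94, 2.96 and 2.82 to 1.76, 1.76 and 1.98, and 3 early and 2 late OreR libraries had a peak there. The rest lay at CG30116, att-ORFB, CG32137, fusl, Gr85a, Atg14, Teh1, Mat89Ba and Impbeta11, with score changes between -1.28 and -1.56.

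**Figure D3:**
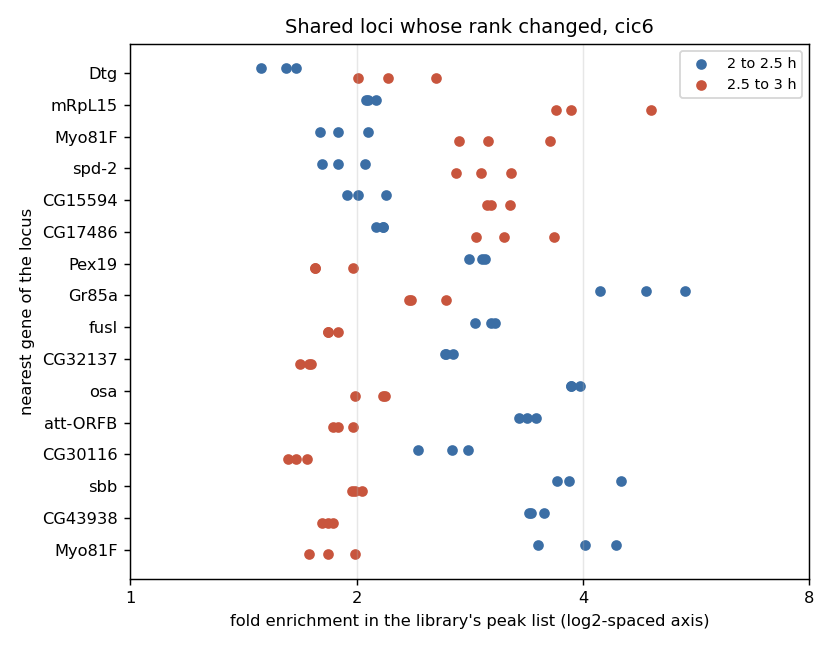
Fold enrichment in each cic6 library (horizontal axis, log2-spaced) at the 16 shared loci of largest rank change past the adjusted threshold, named by nearest gene. Blue points are the 3 early and red points the 3 late libraries. The groups do not overlap at any of these loci, which were chosen for ranks without overlap. The largest fall is at Myo81F, from 3.49 to 4.42 early down to 1.73 to 1.99 late.

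Whether these changes differed from those of the wild type was tested by an interaction of genotype and window in limma, at the 23292 shared loci that also had a peak in all 6 OreR libraries. No locus ranked higher (0%) or lower (0%) in cic6 relative to OreR at an adjusted p under 0.05. The smallest adjusted p was 0.125, and 1874 loci (8.05%) had an unadjusted p under 0.05. Without OreR early replicate 2 the test called 3 higher and 7 lower loci, and without OreR late replicate 3 it called 1 and 11. Of the 20 loci called within cic6, 9 were in this test, and all 9 changed in the same direction in OreR. The rest of the 20 lacked a peak in some OreR library. The share of all 23292 loci that changed the same way was not counted, so the 9 are not read as particular to called loci. Across the 23292 loci Pearson's r between the change in cic6 and the change in OreR was 0.56, a description over loci, which are not independent. The SD of the change was 0.355 in cic6 and 0.481 in OreR. An OreR value came from any OreR peak touching the cic6 locus, so a broad OreR peak could serve neighbouring loci. Beside wntD (3R:13294158-13294614), late OreR values of 5.31 and 4.97 were also those of the locus over wntD. How far this shaped the OreR changes and the interaction was not tested.

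**Figure D4:**
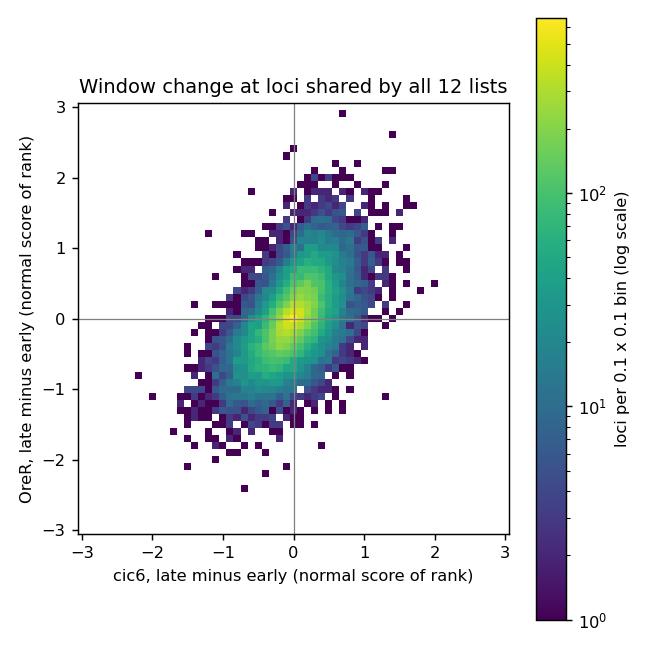
Change of the normal score of rank from early to late in cic6 (horizontal axis) and OreR (vertical axis) at the 23292 loci with a peak in all 12 libraries, as the number of loci per square bin on a logarithmic colour scale. The cloud is tilted along the diagonal, with r = 0.56, and is longer along the OreR axis.

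Lists of genes of early development were then followed at the loci within 5 kb of each gene. The 95 genes of the 16 lists had 956 loci, of which 9 were gained, 13 lost and 534 shared, where 0.711% and 1.59% of all loci were gained and lost. Of the shared ones, 54 (10.1%) had all late ranks above the early ones and 90 (16.9%) below them, against 12.7% and 13.1% of all shared loci, and the median score change was -0.02 against 0.01 at all shared loci. The limma test called 1 of them, the locus near prd and Pex19 described above.

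The terminal genes and Capicua targets (tll, hkb, ind, aos, wntD and tup) had 41 loci. Of these, 1 was gained, none was lost and 26 were shared. Of the shared loci 2 (7.69%) had all late ranks above and 5 (19.2%) below the early ones, against 12.7% and 13.1% of all shared loci, and none passed the limma test. At tll, which encodes a nuclear receptor that patterns both poles, the peak over the gene (3R:30851803-30854158) had fold enrichments of 5.26, 4.88 and 4.15 early and 3.85, 4.07 and 4.96 late, which overlap. A weak locus 817 bp from tll (3R:30855217-30855619) had 1.66, 1.58 and 1.45 early and 1.81, 1.88 and 1.81 late, without overlap. Its score differed by 1.32 (limma adjusted p = 0.0738), and in OreR no early and all 3 late libraries had a peak there.

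At hkb, a zinc finger gene of the poles, the peak over the gene (3R:4345342-4347181) had 3.41, 3.44 and 4.59 early and 4.06, 3.69 and 3.06 late, which overlap. Beside it a locus (3R:4340382-4341005) had 3.86, 2.85 and 3.09 early and 2.60, 2.55 and 2.63 late, with no overlap and a limma adjusted p of 0.246. At ind, a homeobox gene of the neural ectoderm, the ranks of the windows overlapped at all 4 shared loci. The one over the gene (3L:15043574-15044274) had fold enrichments of 6.94, 6.49 and 7.67 early and 5.89, 5.87 and 5.67 late, and a score difference of -0.22 (limma adjusted p = 0.406). The gained locus of the list lay inside aos, the gene for a secreted inhibitor of the EGF receptor (3L:16471854-16472288). It was weak, at 1.75, 1.68 and 1.80, and 3 early and 2 late OreR libraries had a peak there.

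Gap genes, which divide the trunk into broad regions, had 36 loci, of which 1 was gained, at knrl, and none was lost. Of their 20 shared loci 2 (10.0%) had all late ranks above and 6 (30.0%) below the early ones, against 12.7% and 13.1% of all shared loci. The largest difference was 1863 bp from kni (3L:20697241-20697677), with 3.97, 3.88 and 4.57 early and 2.34, 2.10 and 2.66 late (score difference -1.19, limma adjusted p = 0.0629). It differed by -1.08 in OreR. A locus 1697 bp from gt (X:2430664-2431479) had 2.71, 2.76 and 2.76 early and 2.11, 1.84 and 2.03 late (score difference -0.84, limma adjusted p = 0.0938), and differed by -0.78 in OreR. Over Kr (2R:25225739-25226886) the values were 8.71, 8.52 and 8.51 early and 8.23, 7.65 and 8.23 late.

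Pair-rule genes, which are expressed in stripes, had 58 loci, none gained and none lost, and of 37 shared loci 2 (5.41%) had all late ranks above and 8 (21.6%) below the early ones, against the same 12.7% and 13.1%. Over eve (2R:9978934-9979895) the values were 4.55, 4.22 and 4.33 early and 4.04, 3.78 and 4.47 late, which overlap. Segment polarity genes had 2 lost loci of 59, at hh and gsb, and Hox genes 2 gained (Antp, Ubx) and 3 lost (Antp, abd-A, Abd-B) of 192. Among dorsal-ventral genes, ths had 2 gained loci, twi 1 gained and 1 lost, tin 1 gained and Mef2 1 lost, and the 78 loci of the dorsal genes had none. Posterior gut genes had 1 lost locus, at srp, and gastrulation genes 1, at mist. Head gap, cellularization and Enhancer of split genes had none of either kind. The lost locus of strongest enrichment in these lists lay inside Abd-B (3R:16962381-16962596), at 2.71, 3.11 and 2.68.

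Lists that mark other ages or cells were read in the same way. Genes of later differentiation, which would mark older embryos, had 114 loci with none gained and 2 lost (repo, grh), and of 55 shared loci 3 (5.45%) had all late ranks above and 9 (16.4%) below the early ones. Single genes weighed heavily here, with 7 of the 9 at grh and 2 of the 3 at nSyb. Genes of the pole cells had 29 loci with 2 lost, both at vas, and of 16 shared loci 5 (31.2%) had all late ranks above and 2 (12.5%) below the early ones. Of those 5 loci, 3 were at gcl. Constitutive genes had 32 loci with 1 gained, at Act42A, and of 16 shared loci 2 (12.5%) had all late ranks above and 4 (25.0%) below the early ones. Among all shared loci these shares were 12.7% and 13.1%. No locus of these lists passed the limma test.

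The authors' deposited table for cic6 gives a log2 fold change of cic6 over OreR in each window at 20935 regions of 2114 bp. Its name places these regions at ATAC peaks of OreR, so sites open only in cic6 may be missing from them. The late value minus the early one is the change of cic6 between windows relative to that of OreR, and it was tested by a Wald ratio with Benjamini-Hochberg adjustment, with the errors of the windows taken as independent. At an adjusted p under 0.05 a positive difference was called at 7 regions (0.0334% of those tested) and a negative one at 24 (0.115%). Over all regions the difference had a median of -0.016 and an SD of 0.205 against a median SE of 0.155. An unadjusted p under 0.05 was found at 2010 regions (9.6%). The distance from OreR was smaller late. In the authors' deposited table the median size of the log2 fold change was 0.251 early and 0.169 late, and 68.0% of regions had the smaller size late. Of 4746 regions called in both windows in the authors' deposited table, 4740 had the same sign.

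The difference also moved with signal. Regions were put into 5 groups of equal size by mean normalized count, and from the lowest to the highest group the median difference was 0.115, 0.066, 0.023, -0.081 and -0.249. With this trend removed 3 positive and 11 negative regions were called, and 11 of these 14 were among the 31.

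Of the 24 regions called with a negative difference, 18 had a positive log2 fold change early, and 15 were called higher early in the authors' deposited table. A call on late minus early favours a high early or a low late value, so these counts are partly built in. The median early value over all 20935 regions was -0.02, and the share called higher early among them was not counted. Late, 11 of the 24 were called lower there, 11 were called neither way and 2 higher. At sano, a gene of planar polarity (2R:18877623-18879736), the authors' deposited table gave 0.43 early and -0.22 late, a difference of -0.65 (SE 0.12, Wald adjusted p = 0.000951). At trn, which encodes a cell surface protein with leucine-rich repeats (3L:13120114-13122227), it gave 0.59 and -0.04, and at CG44435 (2R:18676947-18679060) 0.88 and 0.13. At CG31419 (3R:17297423-17299536) it gave 0.08 and -0.60. With the trend with signal removed the call was lost at CG44435 (Wald adjusted p = 0.125) and held at sano, trn and CG31419.

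The positive differences were fewer. In the authors' deposited table the region 9639 bp from Obp85a (3R:8430236-8432349) went from -0.56 to 0.40, a difference of 0.97 (SE 0.18, Wald adjusted p = 0.000951). A second region near Obp85a (3R:8444157-8446270) went from -0.12 to 0.47, and the regions nearest to BCL7-like (X:9399916-9402029) and Octbeta3R, an octopamine receptor gene (3R:12511896-12514009), from -0.44 to 0.24 and from -0.18 to 0.34. At Cht10, a chitinase gene (2L:23030705-23032818), cic6 was above OreR in both windows, at 1.11 and 1.74. With the trend with signal removed the calls held at Cht10 and the first region near Obp85a, and were lost at the second (Wald adjusted p = 0.0633), at BCL7-like (0.105) and at Octbeta3R (0.0914). The peak lists had a peak in all 12 cic6 and OreR libraries at these regions, except the first near Obp85a, where 2 early and 3 late cic6 and 2 early and 1 late OreR libraries had one.

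The region at w, the white eye-colour gene (X:2795031-2797144), was at -5.10 early (SE 0.25) and -8.91 late (SE 0.73) in the authors' deposited table. None of the 6 cic6 libraries and all 6 OreR libraries had a peak in it, so its difference between windows is given but not read as a change. The cic6 lists held 1 to 3 peaks elsewhere over w. The labels give no allele of w for any stock, and the part of the genetic background in the comparison with OreR was not tested.

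At the listed genes, 378 regions had a median difference of -0.20, and 2 of them, both negative, passed the test. The difference rests on the same OreR libraries as the interaction above and is not independent of it. The first lay inside opa, a pair-rule gene for a zinc finger factor (3R:4867540-4869653), at -0.25 early and -1.05 late in the authors' deposited table (difference -0.80, Wald adjusted p = 0.0164). The peak inside that region (3R:4867988-4868861) had fold enrichments of 2.11, 2.06 and 2.3 early and 1.77, 1.58 and 1.98 late in cic6, and 1.94, 1.73 and 1.82 and then 1.91, 1.71 and 2.00 in OreR. The second lay inside ths, which encodes an FGF ligand, with Ir48c as the gene of nearest end (2R:11799261-11801374), and went from 0.42 to -0.17 in the authors' deposited table (difference -0.59, Wald adjusted p = 0.0234). A further pair was singled out after its values were seen. An enhancer that the authors name meltrin and class as neuroectodermal, 13800 bp from Meltrin (3R:14678707-14680820), was at 0.83 and -0.02 in the authors' deposited table. A region 5080 bp from aop, which encodes a repressor that MAP kinase inactivates (2L:2171561-2173674), was at 0.86 and 0.33 in the authors' deposited table. With the trend with signal removed none of these 4 was called (Wald adjusted p = 0.133 for opa, 0.125 for Ir48c, 0.571 for Meltrin and 0.77 for aop).

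The 19 regions at terminal genes and Capicua targets had a median log2 fold change of 0.76 early and 0.39 late in the authors' deposited table, and none passed the test of the difference. Region by region their median difference was -0.15, against -0.20 at all listed genes and -0.20 at constitutive genes. At tll the enhancer named tll_(+1) (3R:30851030-30853143) was at 1.21 early (SE 0.16) and 0.92 late (SE 0.16), a difference of -0.30 (SE 0.23, Wald adjusted p = 0.638). At hkb the enhancer named hkb_(-2) (3R:4346601-4348714) was at 0.92 and 0.69, a difference of -0.23 (SE 0.19). At ind the region that holds the named enhancer (3L:15039134-15041247) was at 0.94 and 0.35, a difference of -0.59 (SE 0.26, Wald adjusted p = 0.496). At aos the highest region (3L:16475599-16477712) was at 1.04 and 0.90. The largest Wald ratio of the list was at a further aos region (3L:16470798-16472911), at 0.02 and 0.39 in the authors' deposited table, a difference of 0.36 (SE 0.15, Wald adjusted p = 0.482). Not every region was above 0 there: another aos region (3L:16465632-16467745) was at -0.20 and -0.15, and a region near tup (2L:18852401-18854514) at -0.16 and -0.04.

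Several other groups had medians nearer 0 late. In the authors' deposited table the median went from 0.38 to 0.01 at 29 regions of pair-rule genes, from 0.72 to 0.44 at 10 of head gap genes, from 0.75 to 0.63 at 12 of posterior gut genes and from 0.39 to 0.11 at 12 of constitutive genes. At 15 regions of gap genes the median in the authors' deposited table was 0.00 early and 0.02 late. Region by region, however, their median difference was -0.18. The gap genes differed among themselves, with hb at 0.77 early and 0.52 late and Kr at -0.32 and -0.53 as medians over 3 regions each. Enhancers that the authors class by pattern had median differences of -0.23 (18 anterior), -0.36 (19 dorsal), -0.39 (21 neuroectodermal) and -0.37 (37 ventral). The group of regions with most signal had a median difference of -0.249, and the constitutive genes stood at a median difference of -0.20.

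**Figure D5:**
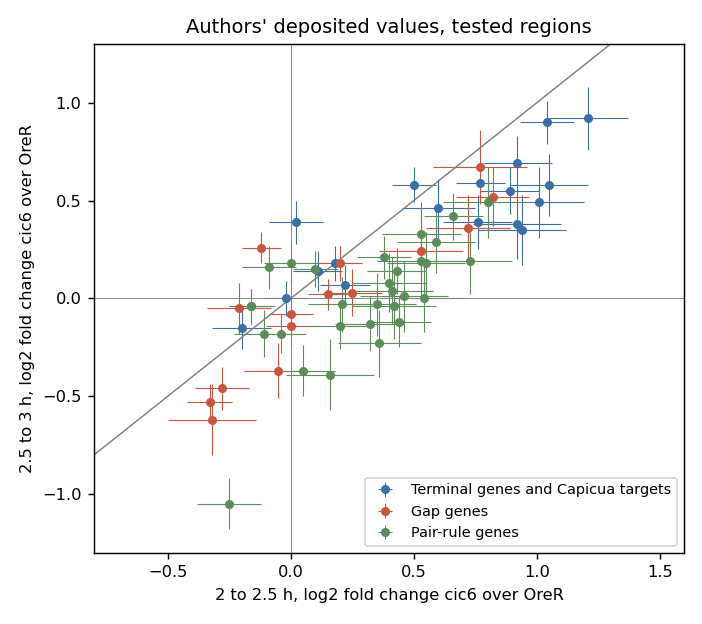
Log2 fold change of cic6 over OreR in the authors' deposited table, early (horizontal axis) and late (vertical axis), at tested regions within 5 kb of terminal genes and Capicua targets, gap genes and pair-rule genes. Points are regions, error bars are the authors' standard errors and the grey diagonal marks equal values. Most points lie below the diagonal, and the region near opa, from -0.25 to -1.05, is the lowest.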

How the data were processed

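Embryos were collected over 30 min at 25 °C and nuclei were treated with Tn5 for 30 min at 37 °C, per the labels' protocols. The submitters' processing notes name dm6, Bowtie2 2.3.5.1, Picard 2.23.8, MACS2 2.2.7.1 and DESeq2, without roles or settings, and a shift of reads for the Tn5 cut is not given in the sources used here. Each deposited list holds the peaks of 1 library, not of pooled libraries, with a score, a fold enrichment (a linear ratio), the p-value and the q-value as −log10, and a summit position. The authors' deposited table for cic6 gives, per region and window, a size-factor-scaled mean count (signal), cic6 over OreR as a log2 fold change with its standard error, a Wald score and a p-value. It holds no counts per library, so edgeR was not run.

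Peaks overlapping by at least 1 bp were merged into loci, with the highest fold enrichment per library. Ranks among shared loci were turned into normal scores and fitted with limma 3.58.1 in R 4.3.3 with Benjamini-Hochberg adjustment. The fits were also run on simulated data with independent noise in each library. The outcome is not given here and lends no weight to the calls. Two-sided exact permutation tests were used for shares of loci with a peak. Genes come from a RefSeq table of Release 6 without strand, so each locus took the name of the protein-coding gene whose end lay closest, and 95 of 95 listed genes matched, 3 of them through synonyms. Coordinates are 1-based: 1 was added to the starts of the deposited peaks, and regions of the deposited table are as deposited. The text names the 10 gained and 10 lost loci with the highest value of their lowest percentile, up to 10 shared loci in each direction past an adjusted p of 0.05 without overlap of ranks, and up to 5 regions in each direction of the deposited table by Wald ratio. Members and lists were chosen with earlier results of these data known. Sequences were not used here.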

Additional observations from a re-analysis of the deposited data

Results flagged for a closer look

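In the authors' deposited table the log2 fold change of cic6 over OreR differed between the windows at 14 regions named here, by a Wald test adjusted over 20935 regions. The values are late minus early. It was positive at both regions near Obp85a, by 0.97 (3R:8430236-8432349) and 0.60 (3R:8444157-8446270), and at Cht10 (0.63), BCL7-like (0.68) and Octbeta3R (0.52). It was negative at sano (-0.65), CG31419 (-0.69), trn (-0.63), CG44435 (-0.75), w (-3.81), opa (-0.80), Ir48c (-0.59), Meltrin (-0.85) and aop (-0.53). With the trend with signal removed the call was lost at 8 of the 14: the second region near Obp85a, BCL7-like, Octbeta3R, CG44435, opa, Ir48c, Meltrin and aop. At w no cic6 library of either window had a peak in the region, so the value there is not read as a change between windows.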

How the results depend on the processing

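The number of gained and lost loci depended on the length of the lists and on single libraries: 862 were gained and 683 lost with lists of equal length, and 704 to 1369 gained and 1406 to 3088 lost with 1 library left out, which loosens the rule. With a −log10 q of at least 3 there were 476 and 982, with an overlap of at least 100 bp 479 and 1079, and with loci chained from summits within 150 bp 656 and 1486. The rank test of shared loci changed under every alternative run. Against 6 higher and 14 lower loci, limma called 50 and 84 with a −log10 q of at least 3, 34 and 65 with lists of equal length, 209 and 350 on median-centred log2 fold enrichment, 56 and 106 on plain ranks and 17 and 39 with chained summits, and it called 0 and 0 without any 1 library. Of the 20 loci, 13, 15, 19, 16 and 14 were among the calls of these 5 alternatives in that order. The interaction with OreR gave 0 to 3 higher and 0 to 11 lower loci with 1 of its 12 libraries left out. The difference in median fold enrichment ranged from -0.217 to 0.0749 with 1 library left out, and turned positive at 0.0749 without early replicate 1 and at 0.00902 without late replicate 1. The cause was not tested for these results.

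The replicate number used as a block gave 0 higher and 0 lower shared loci in place of 6 and 14, and 0 and 0 in the interaction. With the numbers as pairs, the exact p was 0.75 for peak number, 0.25 for median width and 0.75 for median fold enrichment. Same-numbered libraries share only a number: their deviations from the window means had correlations of -0.166, -0.00718 and -0.236, and no early library correlated best with the late library of its own number.

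The recurrence of members in other genotypes kept its direction. The difference was 21.4 to 28.1 points for gained and -27.2 to -22.4 points for lost loci when the members were rebuilt without each cic6 library, an alternative chosen after seeing the data (exact permutation p of at most 0.0015). In OreR alone it was 35.4 and -35.9 points, where the exact test can go no lower than p = 0.1. OreR-defined loci differed in cic6 by 20.2 to 29.1 and by -41.3 to -22.3 points with 1 library left out, also chosen after seeing the data. With the trend with signal removed, 3 higher and 11 lower regions were called in the authors' deposited table, against 7 and 24, which stayed at 7 and 24 with values centred on their medians and came to 7 and 21 with a difference of at least 0.5. Depth is unknown, so a peak that is missing from a list may lie just under the authors' threshold.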
